A study of Mus musculus with 20 samples.

Results

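Cell division genes were followed in liver RNA of male mice by RNA-seq. A list of 42 genes that work in DNA synthesis or in mitosis was matched by gene name to the count table, which held 16115 genes. Of the 42 genes, 40 were in the table: all 14 S-phase genes and 26 of the 28 mitotic genes. Cdc25c and Ttk were not analysed here. The study compared 5 groups, each with a labelled collection time of 18 months, the untreated groups included. They were Fancd2 mutants (d2-/-) given metformin and oxymetholone together (the combination, 3 libraries), Fancd2 mutants given oxymetholone (5 libraries), Fancd2 mutants given metformin (3 libraries), untreated Fancd2 mutants (3 libraries) and untreated wild-type mice (4 libraries). All groups were male, all drug-treated groups carried the mutation, and no wild-type group received a drug. The labels give no strain, starting age or dose. The mutant is a constitutive model of Fanconi anemia, an inherited defect in the repair of DNA interstrand crosslinks. Metformin is a drug for diabetes, and oxymetholone is an androgenic steroid prescribed in bone marrow failure.

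Cells copy their DNA in S phase and divide it in mitosis, and the genes for the 2 steps are switched on one after the other. E2F transcription factors drive the S-phase genes, which encode the MCM helicase, the sliding clamp of the replication fork and the enzymes that make nucleotides. MYBL2 and FOXM1, together with the MuvB complex, drive the mitotic genes later in the cycle, through a promoter element called the CHR. Most hepatocytes of an adult liver are not cycling, and dividing cells there also include Kupffer cells, lymphocytes and other non-parenchymal cells. In bulk RNA, fewer cells of a type and less RNA per cell cannot be told apart.

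The promoters of the 2 classes held different shares of 3 short motifs. The windows searched ran 250 bases before to 50 bases after the annotated start of each gene, from RefSeq on GRCm38.p6, while the counts were made on GRCm39, so these coordinates belong to the promoter sequences only. A window was given for 12 of the 14 S-phase genes and 21 of the 26 mitotic genes. The CHR was searched as TTTGAA or TTCGAA on both strands, and it was in 17 of 21 mitotic windows (81.0%), 2 of 12 S-phase windows (16.7%) and 19.4% of all 27025 windows. The CCAAT box, searched as CCAAT on both strands, was in 19 of 21 mitotic windows (90.5%), 8 of 12 S-phase windows (66.7%) and 37.9% of all windows. All 17 mitotic windows with a CHR also had a CCAAT box (81.0% of the 21), against 7.70% of all windows. E2F-type sites, searched as TTCCCGC or TTGGCGC or TTCGCGC or TTGCCGC on both strands, were in 4 of 21 mitotic windows (19.05%), 6 of 12 S-phase windows and 9.69% of all windows. E2F-type matches on the opposite strands can overlap each other and were counted separately. No test was made of these shares, and a match is not evidence that a factor binds there.

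The 180 bases before the start are shown for 3 mitotic genes and 3 S-phase genes, chosen because they hold the elements of their class in this stretch. Capitals mark every complete CHR, CCAAT or E2F-type match on either strand. Cdk1 (chr10:69352913-69353092, minus strand) encodes the kinase that starts mitosis, Ube2c (chr2:164769749-164769928, plus strand) the ubiquitin-conjugating enzyme of the anaphase promoting complex, and Cdc20 (chr4:118437344-118437523, minus strand) an activator of that complex. Mcm5 (chr8:75109329-75109508, plus strand) and Mcm6 (chr1:128359706-128359885, minus strand) encode helicase subunits, and Rrm1 (chr7:102441515-102441694, plus strand) encodes the large subunit of ribonucleotide reductase. All are written in the direction of the gene.
Cdk1: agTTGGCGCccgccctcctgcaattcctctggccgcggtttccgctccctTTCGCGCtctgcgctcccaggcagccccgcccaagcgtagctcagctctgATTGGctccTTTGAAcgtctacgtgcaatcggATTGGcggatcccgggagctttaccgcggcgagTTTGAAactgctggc
Ube2c: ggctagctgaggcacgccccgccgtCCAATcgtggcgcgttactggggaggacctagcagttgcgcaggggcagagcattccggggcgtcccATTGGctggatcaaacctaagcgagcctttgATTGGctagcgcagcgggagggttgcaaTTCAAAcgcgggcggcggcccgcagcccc
Cdc20: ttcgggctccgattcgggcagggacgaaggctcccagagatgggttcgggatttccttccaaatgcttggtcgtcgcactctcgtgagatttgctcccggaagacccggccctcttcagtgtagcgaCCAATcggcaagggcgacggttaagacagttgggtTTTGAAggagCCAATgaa
Mcm5: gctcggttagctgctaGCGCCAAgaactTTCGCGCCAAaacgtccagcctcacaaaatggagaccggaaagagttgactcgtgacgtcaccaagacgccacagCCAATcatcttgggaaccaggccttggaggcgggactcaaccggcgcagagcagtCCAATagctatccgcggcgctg
Mcm6: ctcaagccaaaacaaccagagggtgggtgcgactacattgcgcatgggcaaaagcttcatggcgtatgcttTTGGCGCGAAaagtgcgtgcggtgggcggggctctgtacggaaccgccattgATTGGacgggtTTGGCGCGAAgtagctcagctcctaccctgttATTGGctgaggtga
Rrm1: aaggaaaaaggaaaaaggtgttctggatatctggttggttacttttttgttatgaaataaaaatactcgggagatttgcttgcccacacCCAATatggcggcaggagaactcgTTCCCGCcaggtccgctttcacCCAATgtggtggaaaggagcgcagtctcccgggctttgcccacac
The Cdk1 stretch held 2 CHR matches, 2 CCAAT boxes and 2 E2F-type matches. The Ube2c stretch held 1 CHR match and 3 CCAAT boxes, the Cdc20 stretch held 1 CHR match and 2 CCAAT boxes, and both held 0 E2F-type matches. The Mcm5 stretch held 3 E2F-type matches, the Mcm6 stretch 4 and the Rrm1 stretch 1, with 2 CCAAT boxes and 0 CHR matches in each.

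Total counts ran from 20.2 to 32.7 M per library. Levels are given as CPM, the deposited counts relative to library size after scaling between libraries, and are compared between libraries and not between genes, since CPM is not corrected for gene length. The S-phase genes had 10 to 1324 counts per library and the mitotic genes 0 to 857, and 6 mitotic genes had 0 counts in 7 gene-by-library values. A count of 0 allows up to 3 counts, which is 0.116 to 0.164 CPM in those libraries, and this limit covers counting error only. The level of Fancd2 itself was not analysed here. The summed CPM of 10 hepatocyte markers was 61892 to 118785, and all 10 had counts in every library. Combination replicate 3 stood apart from the rest: its median correlation of log2 CPM with the other libraries, 0.916, was the lowest of the 18 libraries. Its factor for scaling between libraries (1.31) was the largest of the 18, and that of metformin replicate 4 (1.23) was the next largest. Nothing in the labels says whether the libraries of a group came from separate mice, so p-values measure the spread between these samples.

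The SD between libraries of the same group exceeded the SD between group means in 26 of 26 mitotic and 13 of 14 S-phase genes. Means of 3 to 5 libraries spread less than single libraries even where groups do not differ. This order was therefore largely fixed in advance and is no result about these genes. The median within-group SD of log2 CPM was 1.10 over the 26 mitotic genes, 0.64 over the 14 S-phase genes and 0.51 over all genes. Combination replicate 3 had the highest level of the 18 libraries in 25 of the 26 mitotic genes. The share of all genes with their highest level in that library is not given here. Plk1, a kinase of mitotic entry, was the exception and was highest in metformin replicate 3. The S-phase genes had other leading libraries: oxymetholone replicate 5 was the highest in 8 of 14 genes, and combination replicates 2 and 3 were the highest in 3 genes each. Combination replicate 3 and metformin replicate 4 each lay above all 7 untreated mutant and wild-type libraries in 26 of 26 mitotic genes. Combination replicate 1 did so in 0 of 26 and combination replicate 2 in 1 of 26. Oxymetholone replicates 2, 4 and 5 did so in 17, 17 and 14 of 26, and oxymetholone replicates 1 and 3 in 4 and 1. Metformin replicates 1 and 3 did so in 1 and 5 of 26. These 26 include 8 genes, named below, that are in the table through libraries where they were high. Over all genes, the share above all untreated libraries was 24.5% in combination replicate 3, 14.2% in metformin replicate 4, 10.1% and 12.2% in combination replicates 1 and 2, and 15.7%, 14.8% and 17.2% in oxymetholone replicates 2, 4 and 5. It was 9.40% and 24.6% in oxymetholone replicates 1 and 3, and 12.9% and 25.4% in metformin replicates 1 and 3. Of the 14 S-phase genes, 11 lay above all untreated libraries in combination replicate 3, 10 in metformin replicate 4 and 9 in oxymetholone replicate 5. The other treated libraries had 0 to 5 such S-phase genes.

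**Figure D1:**
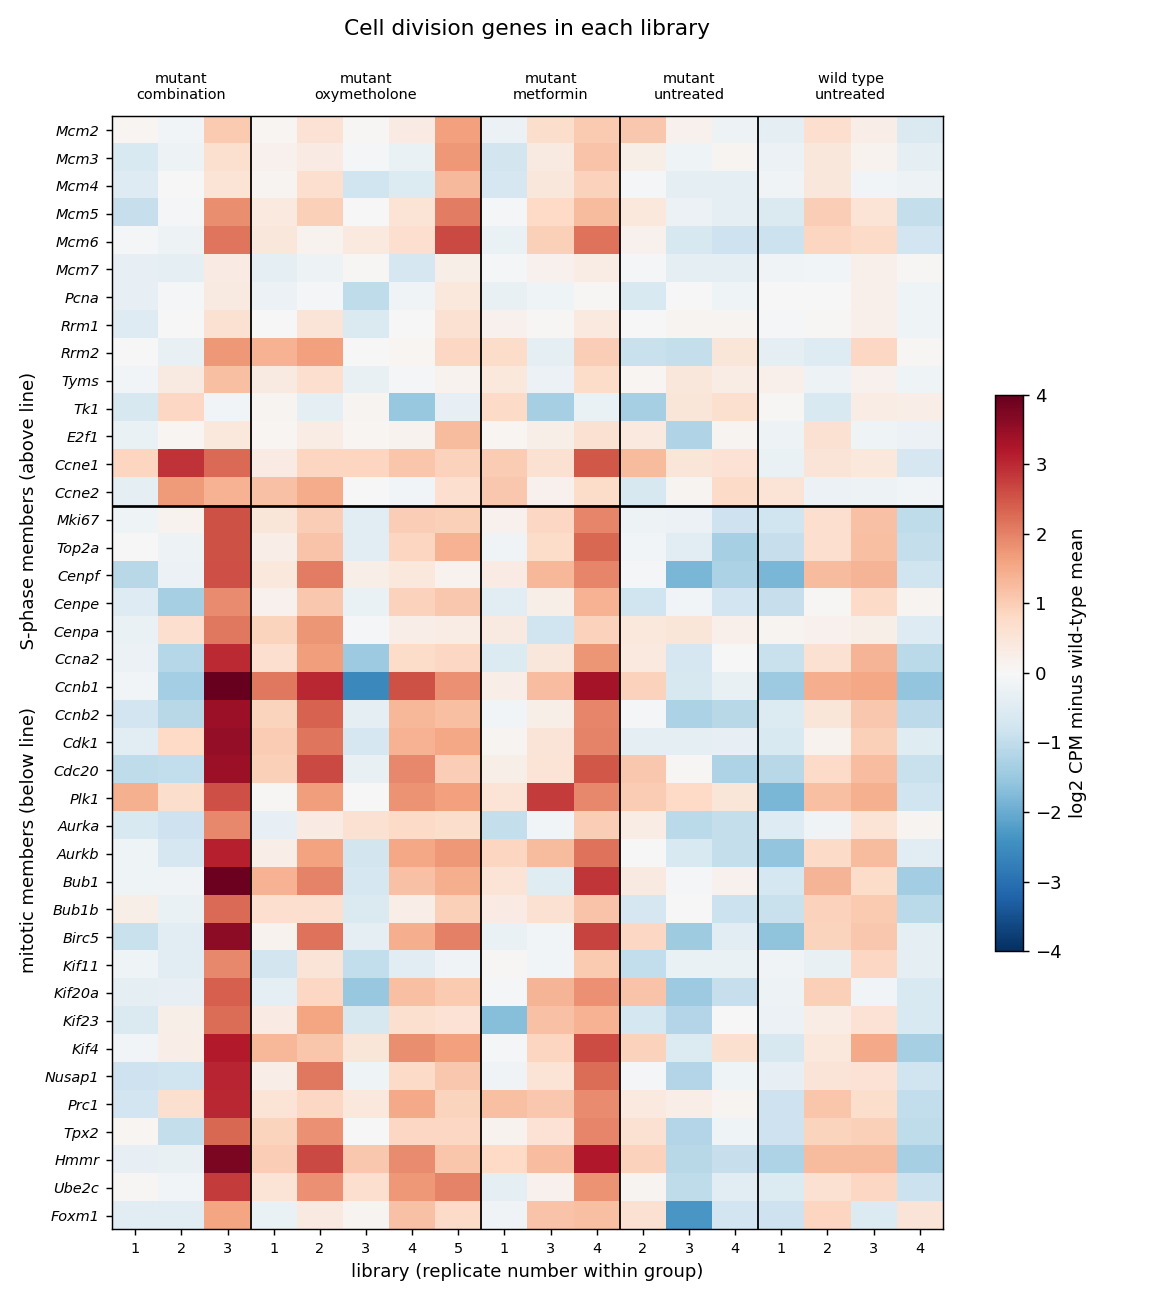
Log2 CPM of each of the 40 genes (rows; 14 S-phase genes above the line, 26 mitotic genes below) in each of the 18 libraries (columns, by group and replicate), as the difference from the mean of the 4 wild-type libraries; red is higher and blue lower, on a scale of -4 to 4. The column of combination replicate 3 is the reddest for 25 of 26 mitotic genes, while oxymetholone replicate 5 leads 8 of 14 S-phase genes.

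The MCM helicase unwinds DNA at the replication fork, and its 6 subunits are loaded at origins before S phase. Mcm7 had 9.21, 9.18 and 14.7 CPM in the combination livers, 9.17, 10.2, 12.2, 7.38 and 13.8 in the oxymetholone livers, 11.3, 13.3 and 14.5 in the metformin livers, 11.1, 8.97 and 9.06 in the untreated mutant livers, and 10.5, 10.97, 13.4 and 12.1 in the wild-type livers. Mcm7 was higher in every metformin liver than in any untreated mutant liver, and the other groups overlapped. Mcm2 had 3.22, 2.80 and 6.44 CPM in the combination livers, 3.20, 4.64, 3.14, 3.85 and 9.62 in the oxymetholone livers, 2.58, 5.05 and 6.34 in the metformin livers, 6.46, 3.45 and 2.64 in the untreated mutant livers, and 2.35, 4.95, 3.69 and 2.004 in the wild-type livers. Oxymetholone replicate 5 stood out among the oxymetholone livers, and untreated mutant replicate 2 lay above the other untreated mutants. Mean log2 CPM over the 6 subunits, set relative to the wild-type mean, was highest in oxymetholone replicate 5 (1.60), then in metformin replicate 4 (1.14) and combination replicate 3 (1.09). The other 4 oxymetholone livers lay between -0.06 and 0.42 on this log2 scale.

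Pcna encodes the sliding clamp that holds DNA polymerase on its template. Pcna had 19.3, 22.9 and 31.1 CPM in the combination livers, 20.7, 23.6, 12.1, 22.2 and 32.5 in the oxymetholone livers, 19.998, 21.8 and 25.3 in the metformin livers, 16.1, 24.4 and 21.7 in the untreated mutant livers, and 23.9, 24.5, 28.1 and 21.5 in the wild-type livers. All 5 groups overlapped in Pcna, and both its lowest and its highest library were oxymetholone livers. Enzymes of nucleotide supply were also in the list: the ribonucleotide reductase subunits Rrm1 and Rrm2, thymidylate synthase Tyms and thymidine kinase Tk1. Rrm2 had 5.75, 4.59 and 19.05 CPM in the combination livers, 14.8, 17.7, 5.67, 5.92 and 10.02 in the oxymetholone livers, 9.47, 4.26 and 11.2 in the metformin livers, 3.02, 2.90 and 7.996 in the untreated mutant livers, and 4.37, 3.92, 10.03 and 5.86 in the wild-type livers. Oxymetholone replicates 1 and 2 and combination replicate 3 were the highest in Rrm2, and untreated mutant replicates 2 and 3 the lowest. Tk1 had 15.8, 43.2 and 22.5 CPM in the combination livers, 26.4, 18.4, 26.3, 8.52 and 19.6 in the oxymetholone livers, 41.2, 9.77 and 20.3 in the metformin livers, 9.70, 34.3 and 37.9 in the untreated mutant livers, and 25.2, 16.1, 30.2 and 29.2 in the wild-type livers. Tk1 spread widely within all 4 mutant groups and did not follow Rrm2, since its highest libraries were combination replicate 2 and metformin replicate 1.

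E2f1 encodes a transcription factor of S-phase entry, and Ccne1 and Ccne2 encode the E-type cyclins that drive that entry. E2f1 had 2.13, 2.75 and 3.53 CPM in the combination livers, 2.76, 3.19, 2.76, 2.88 and 6.39 in the oxymetholone livers, 2.74, 3.04 and 3.97 in the metformin livers, 3.45, 1.09 and 2.82 in the untreated mutant livers, and 2.26, 3.95, 2.29 and 2.20 in the wild-type livers. Oxymetholone replicate 5 was again the highest library, and the groups overlapped. Ccne1 had 1.83, 7.65 and 4.98 CPM in the combination livers, 1.24, 1.82, 1.81, 2.15 and 1.90 in the oxymetholone livers, 2.05, 1.52 and 5.79 in the metformin livers, 2.42, 1.37 and 1.47 in the untreated mutant livers, and 0.783, 1.42, 1.33 and 0.578 in the wild-type livers. Ccne1 was above every wild-type liver in all 3 combination livers and all 3 metformin livers, while oxymetholone replicate 1 and untreated mutant replicate 3 fell within the wild-type range. Ccne2 ranged over 1.19 to 5.15 CPM in the combination livers, 1.42 to 4.38 in the oxymetholone livers, 1.72 to 3.32 in the metformin livers, 0.959 to 2.64 in the untreated mutant livers and 1.28 to 2.26 in the wild-type livers.

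Foxm1 encodes the transcription factor that activates mitotic genes. Foxm1 had 0.198, 0.204 and 1.03 CPM in the combination livers, 0.240, 0.408, 0.333, 0.771 and 0.569 in the oxymetholone livers, 0.263, 0.759 and 0.782 in the metformin livers, 0.497, 0 and 0.147 in the untreated mutant livers, and 0.138, 0.605, 0.179 and 0.463 in the wild-type livers. The 3 combination livers split, with replicate 3 the highest library of all and the other 2 within the wild-type range. Cdk1 binds cyclin B, encoded by Ccnb1 and Ccnb2, to form the kinase that brings cells into mitosis. Cdk1 had 1.19, 2.91 and 19.6 CPM in the combination livers, 3.40, 7.53, 0.9999, 4.42 and 4.98 in the oxymetholone livers, 1.79, 2.38 and 6.81 in the metformin livers, 1.24, 1.26 and 1.28 in the untreated mutant livers, and 1.06, 1.82, 3.26 and 1.16 in the wild-type livers. The 3 untreated mutant livers were nearly equal in Cdk1, while combination replicate 3 lay well above the other 2 combination livers. Ccnb1 had 0.347, 0.102 and 8.63 CPM in the combination livers, 1.88, 3.63, 0, 2.56 and 1.54 in the oxymetholone livers, 0.474, 0.991 and 4.46 in the metformin livers, 0.781, 0.219 and 0.293 in the untreated mutant livers, and 0.0921, 1.17, 1.254 and 0.0771 in the wild-type livers. Ccnb1 had the same 3 highest libraries as Cdk1 (combination replicate 3, oxymetholone replicate 2 and metformin replicate 4) and was not detected in oxymetholone replicate 3.

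**Figure D2:**
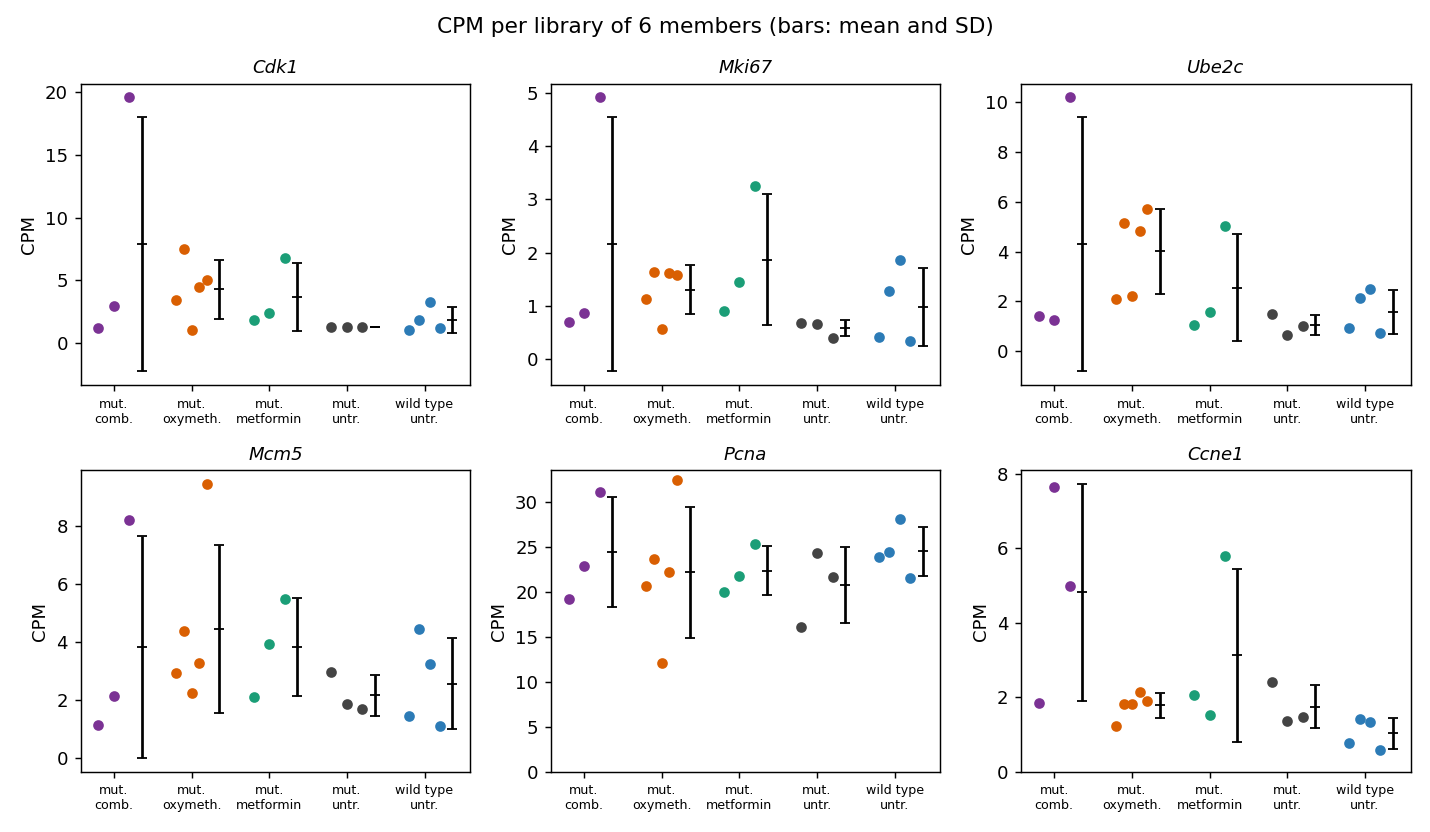
CPM (vertical axes) of 6 genes in each library of the 5 groups (points), with the mean and SD of each group as a bar; 3 mitotic genes are in the upper row and 3 S-phase genes in the lower. In Cdk1, Mki67 and Ube2c the combination group is 1 high library and 2 low ones, while Ccne1 is above every wild-type liver in all 3 combination livers.

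The anaphase promoting complex marks mitotic proteins for destruction and works with the enzyme encoded by Ube2c. Ube2c had 1.44, 1.27 and 10.2 CPM in the combination livers, 2.08, 5.15, 2.24, 4.83 and 5.72 in the oxymetholone livers, 1.05, 1.58 and 5.01 in the metformin livers, 1.49, 0.656 and 1.03 in the untreated mutant livers, and 0.921, 2.14, 2.51 and 0.732 in the wild-type livers. All 5 oxymetholone livers were above all 3 untreated mutant livers in Ube2c, and they split into 3 livers near 5 CPM and 2 near 2 CPM. Aurka encodes the Aurora A kinase of the centrosome. Aurka had 1.09, 0.918 and 6.63 CPM in the combination livers, 1.32, 2.11, 2.62, 2.92 and 2.79 in the oxymetholone livers, 0.842, 1.55 and 3.42 in the metformin livers, 2.10, 0.766 and 0.844 in the untreated mutant livers, and 1.15, 1.53, 2.51 and 1.81 in the wild-type livers. The groups overlapped in Aurka. Bub1b encodes a protein of the spindle checkpoint, which holds cells until every chromosome is attached. Bub1b had 0.396, 0.255 and 1.86 CPM in the combination livers, 0.561, 0.556, 0.190, 0.406 and 0.704 in the oxymetholone livers, 0.421, 0.528 and 0.811 in the metformin livers, 0.178, 0.328 and 0.147 in the untreated mutant livers, and 0.138, 0.676, 0.752 and 0.116 in the wild-type livers. Every metformin liver exceeded every untreated mutant liver in Bub1b, with a small gap between the groups.

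Cenpa encodes the histone H3 variant of centromeres. Cenpa had 3.81, 7.34 and 20.2 CPM in the combination livers, 8.61, 15.8, 4.33, 5.52 and 5.72 in the oxymetholone livers, 5.89, 2.61 and 8.78 in the metformin livers, 6.18, 6.45 and 5.32 in the untreated mutant livers, and 5.02, 5.20, 5.41 and 3.16 in the wild-type livers. Combination replicate 3 and oxymetholone replicate 2 were the highest, and metformin replicate 3 was the lowest library of all. Kif11 encodes the motor that pushes spindle poles apart. Kif11 had 0.991, 0.816 and 4.49 CPM in the combination livers, 0.641, 1.63, 0.524, 0.811 and 1.002 in the oxymetholone livers, 1.16, 1.02 and 2.40 in the metformin livers, 0.533, 0.930 and 0.917 in the untreated mutant livers, and 1.01, 0.890, 2.04 and 0.848 in the wild-type livers. Kif11 was higher in all 3 metformin livers than in the untreated mutants, while the oxymetholone livers overlapped both untreated groups. Mki67 encodes the proliferation marker Ki-67, and Top2a encodes the topoisomerase that untangles chromosomes. Mki67 had 0.694, 0.867 and 4.91 CPM in the combination livers, 1.12, 1.63, 0.571, 1.62 and 1.57 in the oxymetholone livers, 0.895, 1.45 and 3.24 in the metformin livers, 0.675, 0.656 and 0.403 in the untreated mutant livers, and 0.414, 1.28, 1.86 and 0.347 in the wild-type livers. Every combination liver and every metformin liver had more Mki67 than every untreated mutant liver, yet 2 of the 3 combination livers lay within the wild-type range. Top2a had 1.14, 0.969 and 6.96 CPM in the combination livers, 1.36, 2.56, 0.809, 2.07 and 3.06 in the oxymetholone livers, 0.9999, 1.92 and 5.82 in the metformin livers, 1.03, 0.820 and 0.403 in the untreated mutant livers, and 0.552, 1.82, 2.69 and 0.540 in the wild-type livers. Combination replicate 2 had less Top2a than untreated mutant replicate 2, so these groups overlapped.

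A mean over the genes of each class showed how far S-phase and mitotic genes moved together. For each library, log2 CPM of each gene was set relative to its wild-type mean and averaged over the 14 S-phase or the 26 mitotic genes. The mitotic mean was -0.32, -0.33 and 2.81 in the combination livers, 0.52, 1.58, -0.33, 1.14 and 1.10 in the oxymetholone livers, 0.04, 0.67 and 1.96 in the metformin livers, 0.23, -0.66 and -0.48 in the untreated mutant livers, and -0.84, 0.69, 0.91 and -0.75 in the wild-type livers. The S-phase mean was -0.27, 0.32 and 1.03 in the combination livers, 0.29, 0.54, -0.09, -0.03 and 1.01 in the oxymetholone livers, 0.14, 0.17 and 0.90 in the metformin livers, 0.01, -0.15 and 0.06 in the untreated mutant livers, and -0.18, 0.21, 0.26 and -0.29 in the wild-type livers. The mitotic mean covered the wider range in each of the 5 groups. The 3 libraries with the highest S-phase mean were combination replicate 3, oxymetholone replicate 5 and metformin replicate 4, and 2 of these also led the mitotic genes. Oxymetholone replicates 4 and 5 had nearly the same mitotic mean and S-phase means that differed by about 1 log2 unit. Combination replicate 2 went the other way, with its S-phase mean above and its mitotic mean below the wild-type mean.

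**Figure D3:**
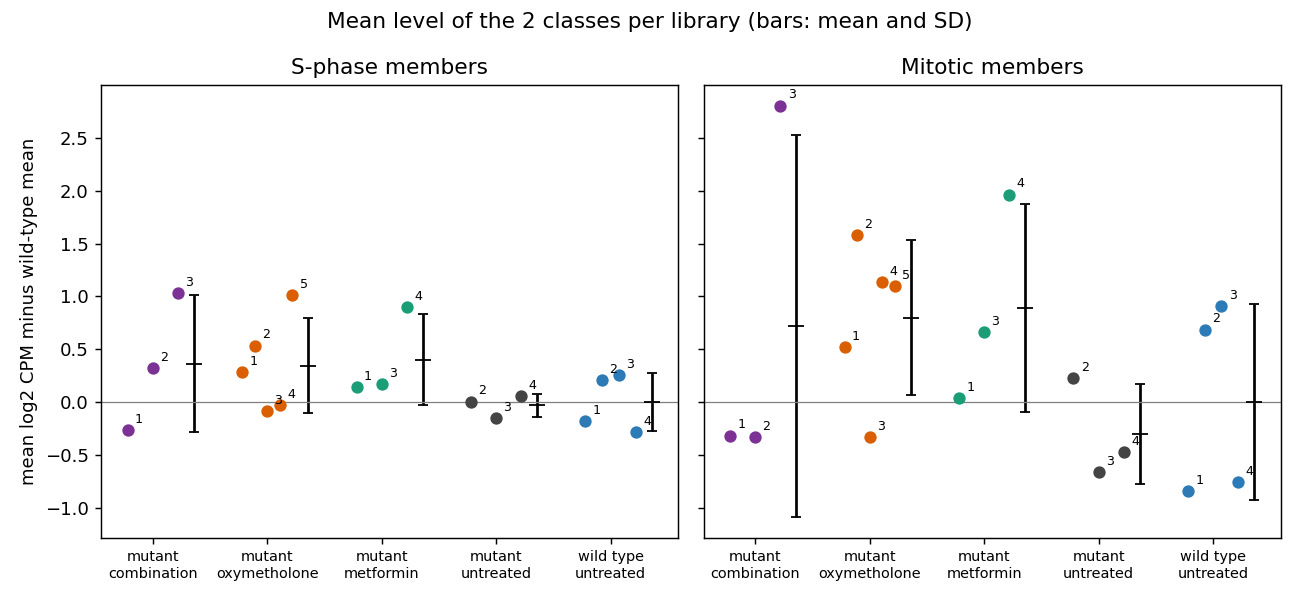
Mean log2 CPM minus the wild-type mean (vertical axis) over the 14 S-phase genes (left) and the 26 mitotic genes (right), 1 point per library with its replicate number, and the mean and SD of each group as a bar. The S-phase means lie between -0.29 and 1.03 and the mitotic means between -0.84 and 2.81, and the combination group holds 1 high and 2 low mitotic values.

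The summed macrophage markers and the summed T, B and NK cell markers were high in the libraries with the highest mitotic means. Plasma cell and neutrophil markers had other leading libraries. The summed CPM of 11 macrophage markers was 217 to 1250 in the combination livers, 363 to 934 in the oxymetholone livers, 239 to 939 in the metformin livers, 425 to 571 in the untreated mutant livers and 371 to 836 in the wild-type livers. Combination replicate 3 (1250) and metformin replicate 4 (939) had the highest sums, as they had the highest mitotic means. The 7 libraries with the highest macrophage sums were the same 7 libraries that had the highest mitotic means. The cut at 7 libraries was 1 choice, and other cuts are not given here. Metformin replicate 3, at rank 8 in the mitotic mean (0.67), was at rank 17 of 18 in the macrophage sum (239 CPM). Within this list Clec4f, a marker of Kupffer cells, was highest in combination replicate 3 (234 CPM). In metformin replicate 4 it had 74.3 CPM, within the range of the untreated mutant livers (61.6 to 111 CPM). In wild-type replicate 2, which is among the 7, Clec4f had 40.1 CPM. The summed CPM of T, B and NK cell markers, of which 13 of 16 were in the table, was 8.05 to 65.6 in the combination livers, 9.48 to 43.9 in the oxymetholone livers, 9.42 to 46.1 in the metformin livers, 15.1 to 21.1 in the untreated mutant livers and 12.02 to 43.4 in the wild-type livers. Combination replicate 3 (65.6) and metformin replicate 4 (46.1) again ranked first and second, and 6 of the top 7 libraries were shared with the mitotic genes. Ptprc, a gene of leukocytes in general, made up 38.0 CPM of the sum in combination replicate 3 and 23.8 CPM in metformin replicate 4. Combination replicate 3 was below metformin replicate 4 in Cd3e (0.611 against 0.840 CPM) and in Cd79a (0.752 against 2.49 CPM). At most 2 of these 13 markers were at 0 counts in any library, and no macrophage marker was. The hepatocyte sum was the lowest of the 18 libraries in metformin replicate 4 (61892) and the next lowest in combination replicate 3 (68627). Erythroid markers, of which 9 of 13 were in the table, shared 4 of the top 7 libraries, and their sum was 1133 to 2518 in the combination livers, 461 to 2512 in the oxymetholone livers, 620 to 1053 in the metformin livers, 471 to 3878 in the untreated mutant livers and 1107 to 2042 in the wild-type livers. Plasma cell markers, of which 6 of 8 were in the table, shared 2 of the top 7 libraries and were highest in oxymetholone replicate 4 (1130 CPM), with metformin replicate 4 ranked 11 and combination replicate 3 ranked 13. Neutrophil markers, of which 10 of 11 were in the table, shared 4 of the top 7 and were highest in wild-type replicate 3 (453 CPM), with combination replicate 3 ranked 5 and metformin replicate 4 ranked 7. Combination replicate 3 had the highest sum of stellate cell and fibroblast markers (835 CPM, 9 of 10 in the table) and of endothelial markers (124 CPM, all 8 in the table), and these lists shared 4 and 3 of the top 7 libraries. It ranked 3 in bile duct markers (684 CPM, 9 of 10 in the table, 4 of the top 7 shared), which were highest in untreated mutant replicate 2 (1478 CPM). Metformin replicate 4 ranked 8 in stellate cell and fibroblast markers, 16 in endothelial markers and 5 in bile duct markers. Fetal liver and tumour markers, of which 10 of 12 were in the table, had their highest sum in metformin replicate 4 (418 CPM, against 37.6 to 75.8 in the wild-type livers) and also shared 4 of the top 7 libraries. H19, an imprinted fetal RNA, made up 283 CPM of that sum, and without it metformin replicate 3 (224 CPM) and combination replicate 3 (195 CPM) were above metformin replicate 4 (134 CPM). The part of these markers in the mitotic differences was not tested.

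**Figure D4:**
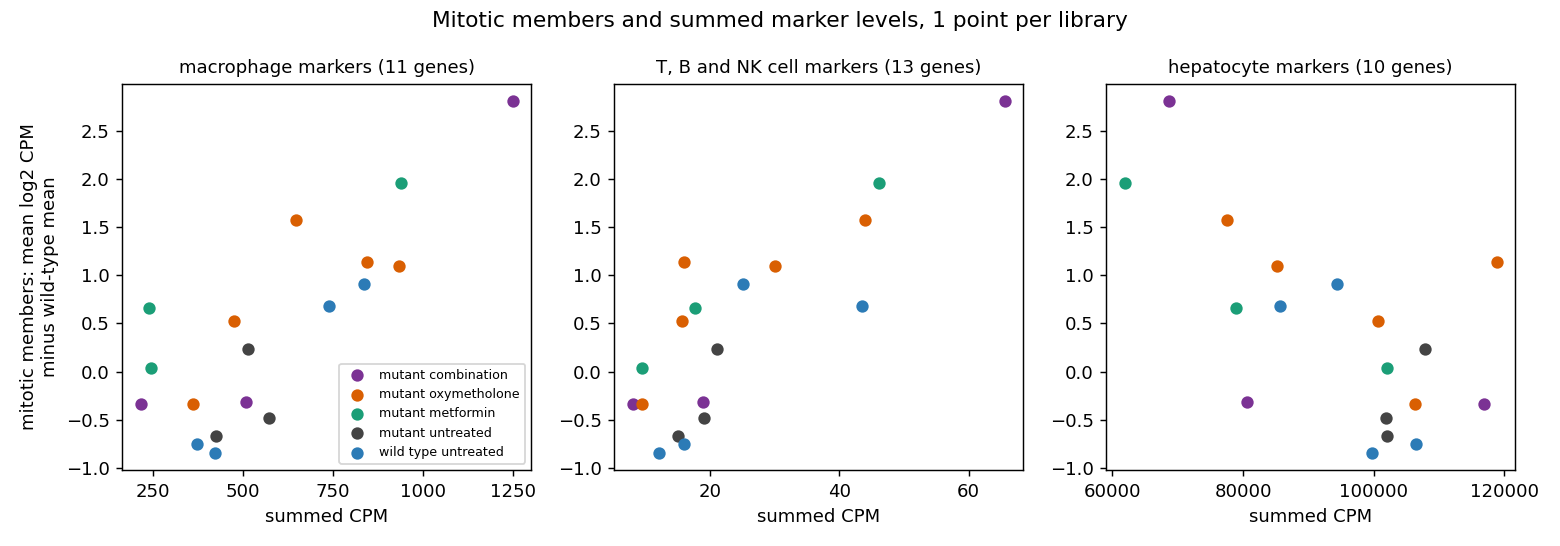
Mean log2 CPM of the 26 mitotic genes minus the wild-type mean (vertical axes) against the summed CPM of macrophage markers, of T, B and NK cell markers and of hepatocyte markers (horizontal axes), 1 point per library, coloured by group. Combination replicate 3 and metformin replicate 4 are at the upper right for both immune lists and at the upper left for hepatocyte markers.

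The combination was set against untreated mutants to see what both drugs together did in the mutant liver. All 26 mitotic genes of the table had a positive fitted difference, with a median log2 difference of 1.96, while the S-phase genes had a median of 0.28 with 11 of 14 positive, and all genes a median of 0.00. The table holds genes that reached 0.401 CPM in at least 3 libraries, and 8 of the 26 mitotic genes (Aurkb, Bub1, Bub1b, Cenpe, Cenpf, Kif20a, Kif23 and Kif4) did so in fewer than 3 of the 7 untreated libraries, so these 8 are in the table through libraries where they were high. With edgeR's quasi-likelihood test and adjustment over all genes, 0 of 40 passed the threshold of 0.05, where 3 of all 16115 genes (0.0186%) did. At an unadjusted p under 0.05, 13 of 26 mitotic genes and 1 of 14 S-phase genes were higher, against 5.46% of all genes in either direction. The median of 1.96 and the 26 genes of this count include those 8. DESeq2 and limma-voom also called 0. Cdk1 had the smallest p, with a log2 difference of 2.65 ± 0.83 (SE) and an adjusted p of 0.798. Ccnb2 differed by 2.90 ± 1.08 (adjusted p = 0.851) and Ube2c by 2.02 ± 0.77 (adjusted p = 0.861). Among S-phase genes, Ccne1 differed by 1.46 ± 0.53 (adjusted p = 0.840) and Ccne2 by 1.002 ± 0.54 (adjusted p = 0.949). The groups did not overlap in 1 of 40 genes, Mki67, while 4.71% of all genes were higher in every combination liver. Without combination replicate 3 the mitotic median was -0.24 and the S-phase median -0.01, and Ccnb2 turned to -0.28. The S-phase median was 0.47 without combination replicate 1 and 0.45 without untreated mutant replicate 2.

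Metformin was set against untreated mutants as the first single drug. The mitotic genes had a median log2 difference of 1.498 with 25 of 26 positive, the S-phase genes a median of 0.41 with 13 of 14 positive, and all genes a median of 0.04. By edgeR 0 of 40 passed the threshold, as did 0 of all genes (0%), and DESeq2 and limma-voom called 0 of the 40. At an unadjusted p under 0.05, 4 mitotic genes and 0 S-phase genes were higher, against 5.67% of all genes in either direction. Top2a differed by 1.96 ± 0.83 (SE, adjusted p = 0.825), Cenpf, a kinetochore protein, by 2.91 ± 1.39 (adjusted p = 0.849) and Aurkb, the kinase of the chromosomal passenger complex, by 2.37 ± 1.08 (adjusted p = 0.853). Mcm6 differed by 1.73 ± 0.85 (adjusted p = 0.896) and Mcm7 by 0.43 ± 0.25 (adjusted p = 0.927). Every metformin liver was above every untreated mutant liver in 7 of 26 mitotic genes (Mki67, Cenpf, Cdk1, Aurkb, Bub1b, Kif11 and Prc1) and 1 of 14 S-phase genes (Mcm7), where 3.94% of all genes were. Cenpf, Aurkb and Bub1b are among the 8 genes that are in the table through libraries where they were high, and without those 8 the count was 4 of 18 mitotic genes. The median of 1.498 and the 25 of 26 also include those 8. Cenpf and Aurkb are also among the 4 mitotic genes at an unadjusted p under 0.05. Without metformin replicate 4 the mitotic median was 0.74 and the S-phase median 0.13.

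Oxymetholone was the other single drug set against the same untreated mutants. The mitotic genes had a median log2 difference of 1.38 with 26 of 26 positive, and the S-phase genes a median of 0.38 with 12 of 14 positive, beside 0.03 over all genes. None of the 40 passed the edgeR threshold, while 7 of all genes (0.0434%) did, and DESeq2 and limma-voom called 0 of the 40. At an unadjusted p under 0.05, 3 mitotic genes and 1 S-phase gene were higher, against 4.80% of all genes in either direction. Ube2c differed by 1.91 ± 0.70 (SE, adjusted p = 0.877), Cdk1 by 1.76 ± 0.75 (adjusted p = 0.877) and Ccnb2 by 2.22 ± 0.98 (adjusted p = 0.877). Rrm2 differed by 1.22 ± 0.54 (adjusted p = 0.877) and Mcm6 by 1.66 ± 0.77 (adjusted p = 0.877). The groups did not overlap in 4 mitotic genes (Cenpf, Prc1, Hmmr and Ube2c) and 0 S-phase genes, where 1.87% of all genes were higher without overlap. Cenpf is 1 of the 8 genes kept through libraries where they were high, and without those 8 the count was 3 of 18. The median of 1.38 and the 26 of 26 include those 8. The S-phase median was 0.00 without oxymetholone replicate 5 and 0.22 without untreated mutant replicate 3. In the authors' deposited table Ube2c had a log2 fold change of 1.61 with an adjusted p of 0.0276 for oxymetholone against untreated mutants, the single gene of the 40 under 0.05 in any of its 7 comparisons, while 47 of all genes were under 0.05 in that comparison. Against untreated mutants, the 26 mitotic genes had other medians in the authors' deposited table. These median log2 fold changes were 0.43 for the combination, 1.03 for oxymetholone and 1.23 for metformin. At an unadjusted p under 0.05 that table held 2, 9 and 11 of the 26 in the same order, against 13, 3 and 4 by edgeR. Of all 16115 genes it held 1380, 1728 and 597. These 3 comparisons share the 3 untreated mutant libraries, so their differences are not independent of each other.

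**Figure D5:**
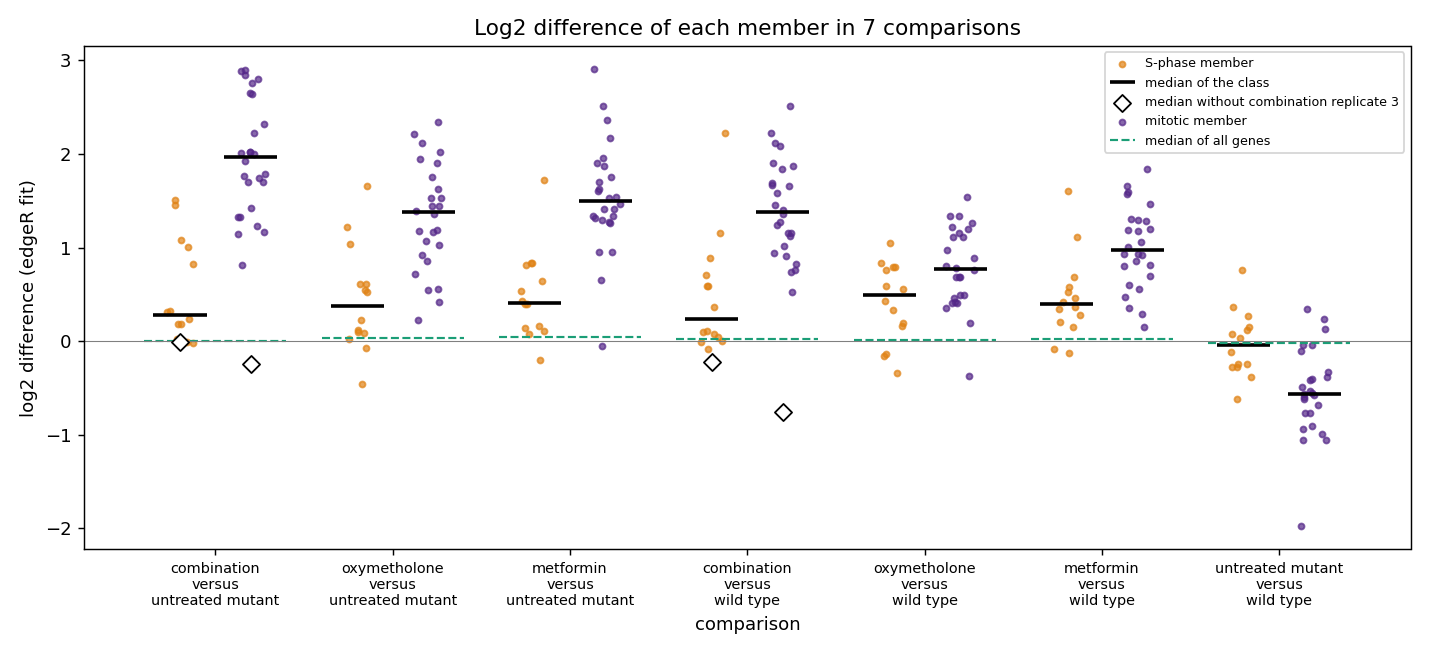
Log2 difference from the edgeR fit (vertical axis) of each S-phase gene (orange) and mitotic gene (purple) in 7 comparisons (horizontal axis); black bars are the medians of the class, green dashed lines the medians of all genes, and open diamonds the class medians without combination replicate 3. The mitotic median for combination versus untreated mutant is 1.96, and -0.24 without that library.

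Each mutant group was also set against wild type, which was untreated. The mitotic medians and counts of all comparisons with wild type include the 8 genes that are in the table through libraries where they were high. Untreated mutants had a median log2 difference of -0.56 over the mitotic genes, with 3 of 26 positive, and -0.04 over the S-phase genes, with 7 of 14 positive, beside -0.02 over all genes. The edgeR test called 0 of 40 and 0 of all genes (0%), 0 of 40 had an unadjusted p under 0.05, and DESeq2 and limma-voom called 0 of the 40. The smallest p among the 40 belonged to Cenpf, with a log2 difference of -1.98 ± 1.36 (SE, adjusted p = 0.973), and Bub1b (-0.99 ± 0.78) and Top2a (-0.90 ± 0.79) came next among mitotic genes with the same adjusted p of 0.973. Ccne1 differed by 0.77 ± 0.51 and Mcm7 by -0.28 ± 0.23, with an adjusted p of 0.973 for both. The mitotic median was -0.90 without untreated mutant replicate 2, -0.28 without untreated mutant replicate 3, -0.33 without wild-type replicate 2 and -0.21 without wild-type replicate 3, and the S-phase median ran from -0.21 to 0.08 over the libraries left out. In the authors' deposited table the mitotic median was -0.84 for untreated mutants against wild type. That table held 6 of 26 mitotic and 0 of 14 S-phase genes at an unadjusted p under 0.05, where 904 of all 16115 genes were. In the mitotic mean the 3 untreated mutant livers lay inside the wild-type range, which had 2 high and 2 low livers.

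Ccne1 had the smallest p among the 40 genes in combination against wild-type livers, as it had in metformin against wild-type livers. For the combination it differed by 2.22 ± 0.50 on the log2 scale (SE, higher in 3 of 3 combination livers than in any wild-type liver). It did not pass edgeR's test (adjusted p = 0.231), but it passed DESeq2's (log2 difference 2.24, adjusted p = 0.00701), and the adjusted p over the alternatives ran from 0.00701 to 0.960. By edgeR 0 of 40 genes passed in this comparison, where 4 of all genes (0.0248%) did, while DESeq2 called 1 of 40 and limma-voom 0. At an unadjusted p under 0.05, 4 mitotic and 2 S-phase genes were higher, against 6.89% of all genes in either direction. The mitotic median was 1.38 and the S-phase median 0.24, with 26 of 26 and 12 of 14 positive, beside 0.02 over all genes. Cdk1 differed by 2.12 ± 0.77 (adjusted p = 0.6253), Prc1, which bundles the microtubules of the spindle midzone, by 1.66 ± 0.75 (adjusted p = 0.704), Cenpa by 1.16 ± 0.52 (adjusted p = 0.713) and Ccne2 by 1.16 ± 0.50 (adjusted p = 0.703). Ccne1 was the 1 gene of the 40 whose groups did not overlap, where 3.69% of all genes were higher without overlap. Without combination replicate 3 the Ccne1 difference was 2.19, while the mitotic median was -0.76, the S-phase median -0.22 and Prc1 -0.25. The S-phase median was 0.45 without combination replicate 1, 0.36 without combination replicate 2 and 0.42 without wild-type replicate 2.

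Metformin livers had a mitotic median of 0.97 and an S-phase median of 0.39 against wild type, with 26 of 26 and 12 of 14 positive, beside 0.02 over all genes. By edgeR 0 of 40 passed, as did 0 of all genes (0%), 1 of 40 had an unadjusted p under 0.05 (4.48% of all genes did), and DESeq2 and limma-voom called 0 of the 40. That gene was Ccne1, with a log2 difference of 1.60 ± 0.50 (SE, adjusted p = 0.497), and it was also the 1 gene without overlap, where 1.83% of all genes were higher without overlap. Mcm6 differed by 1.11 ± 0.78, Plk1 by 1.66 ± 0.86, Prc1 by 1.28 ± 0.75 and Hmmr, a spindle protein and hyaluronan receptor, by 1.84 ± 1.10, each with an adjusted p of 0.9999. Without metformin replicate 4 the mitotic median was 0.13 and the S-phase median 0.11. Oxymetholone livers had a mitotic median of 0.78 with 25 of 26 positive and an S-phase median of 0.49 with 11 of 14 positive against wild type, beside 0.01 over all genes. None of the 40 passed the edgeR threshold, where 16 of all genes (0.0993%) did, 0 of 40 had an unadjusted p under 0.05, and DESeq2 and limma-voom called 0 of the 40. Ube2c differed by 1.34 ± 0.63, Cdk1 by 1.22 ± 0.68, Cenpa by 0.77 ± 0.46, Ccne1 by 0.79 ± 0.45 and Ccne2 by 0.76 ± 0.44, each with an adjusted p of 0.9996. Without oxymetholone replicate 5 the S-phase median was 0.15.

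The interaction asked whether both drugs together differed from the sum of their single differences. The median was -0.90 over the mitotic genes, with 24 of 26 negative, and -0.37 over the S-phase genes, with 10 of 14 negative, beside -0.04 over all genes. By edgeR 0 of 40 and 0 of all genes (0%) passed, 0 of 40 had an unadjusted p under 0.05, and DESeq2 and limma-voom called 0 of the 40. Among the S-phase genes the smallest p belonged to Mcm6 (-1.88 ± 1.13, SE) and Mcm4 (-0.93 ± 0.67). Among the mitotic genes it belonged to Cenpf (-2.36 ± 1.71), Cenpe (-1.45 ± 1.18) and Aurkb (-1.68 ± 1.38). Each of these genes had an adjusted p of 0.863. Cenpf, Cenpe and Aurkb are among the 8 genes that are in the table through libraries where they were high. The mitotic median of -0.90 and the 24 of 26 include those 8. The median over the mitotic genes was -2.82 without combination replicate 3, -0.55 without combination replicate 1, -0.52 without combination replicate 2 and -0.14 without metformin replicate 4. The S-phase median was -0.74 without combination replicate 3, -0.60 without untreated mutant replicate 2, -0.56 without metformin replicate 1, -0.24 without combination replicate 1, and -0.20 both without oxymetholone replicate 5 and without metformin replicate 4. In the authors' deposited table the interaction had a median log2 value of -1.92 over the mitotic genes, with 0 of 26 positive, and -0.51 over the S-phase genes, with 1 of 14 positive. That deposited table held 14 of 26 mitotic and 3 of 14 S-phase genes at an unadjusted p under 0.05, where 585 of all 16115 genes were, and 0 of these genes at an adjusted p under 0.05.

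Other genes of the cell cycle were described from 4 further lists, and 0 of their genes passed edgeR's test in any of the 8 comparisons. Of 60 further mitotic genes 53 were in the table, and their median log2 difference against untreated mutants was 1.32 for the combination (51 of 53 positive), 0.92 for oxymetholone (47 of 53 positive) and 1.03 for metformin (50 of 53 positive). Of 46 further S-phase genes 42 were in the table, with medians of 0.22, 0.13 and 0.20 in the same order and 29, 23 and 24 of 42 positive. At an unadjusted p under 0.05, 13 of the further mitotic genes were higher for the combination, 1 for oxymetholone and 3 for metformin, against 5.46%, 4.80% and 5.67% of all genes in either direction. These lists were measured in the same libraries as the 40 genes, and how they change with a library left out was not examined. For the combination, the median of the 26 mitotic genes was 1.96, and -0.24 without combination replicate 3. The smallest p among the further mitotic genes for the combination belonged to Ect2, an activator of cytokinesis, at 2.69 ± 0.90 (SE, adjusted p = 0.817), and for metformin to Ndc80, a kinetochore protein, at 3.13 ± 1.26 (adjusted p = 0.720). Whether any of these 53 genes are in the table only through libraries where they were high was not examined. Their medians and counts are given without that check. Pole, the catalytic subunit of DNA polymerase epsilon, differed by 1.86 ± 0.57 for metformin (adjusted p = 0.579) and 1.38 ± 0.52 for oxymetholone (adjusted p = 0.877). Its value for the combination is not given here, and its interaction was -2.71 ± 0.76 (adjusted p = 0.863). In untreated mutants Pole differed from wild type by -0.84 ± 0.55 (adjusted p = 0.973). The 9 G1 cyclins, their kinases and related genes had medians of 0.35 for the combination, 0.39 for oxymetholone and 0.55 for metformin, and Ccnd2, which encodes cyclin D2, differed by 0.97 ± 0.43 (adjusted p = 0.881), 0.69 ± 0.38 (adjusted p = 0.877) and 1.09 ± 0.43 (adjusted p = 0.765) in that order. The 18 genes of CDK inhibitors and other brakes had medians of 0.17 for the combination, -0.08 for oxymetholone and 0.05 for metformin. Btg1, an antiproliferative gene, had the smallest p of this list in each: it differed by -0.77 ± 0.24 for the combination (adjusted p = 0.776), -0.93 ± 0.21 for oxymetholone (adjusted p = 0.218) and -0.59 ± 0.24 for metformin (adjusted p = 0.777). In Btg1 all combination and all oxymetholone livers were below all untreated mutant livers, where 3.95% and 1.59% of all genes were. Other brakes were higher: Gadd45b differed by 1.54 ± 0.67 for the combination (adjusted p = 0.881) and Btg2 by 1.16 ± 0.46 for oxymetholone (adjusted p = 0.877). Of the 18 brakes, 12 were positive for the combination, 8 for oxymetholone and 11 for metformin.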

How the data were processed

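Liver RNA of male mice was sequenced in 5 groups. The authors deposited 1 table with whole-number counts per gene and library, per the file headers. The deposited CPM signal was already scaled, and CPM computed here from the counts with edgeR's TMM factors equals it. For 7 comparisons the deposited table holds the authors' own log2 fold changes, p-values and adjusted p. Reads were placed on GRCm39, per the submitters' processing notes. Names of the aligner, counter, annotation and of the authors' test were not given in the sources used here. In every gene at least 3 libraries reached 0.401 CPM. Of 20 labelled samples 18 were used, and metformin replicate 2 and untreated mutant replicate 1 were not used here. Replicates were numbered in the order of the sample records.

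Counts were fitted with edgeR 4.0.16 (R 4.3.3), over all 16115 genes and 18 libraries: TMM scaling, filterByExpr (0 genes removed), a robust quasi-likelihood test with 1 coefficient per group, and Benjamini-Hochberg adjustment over all genes at 0.05. Log2 CPM used a prior count of 2. SEs come from the same fit. The procedure was tested on simulated counts. Alternatives were DESeq2 1.42.0, limma-voom (limma 3.58.1) with quality weights, DESeq2 size factors, a filter at a mean of 1 CPM, fits of the compared groups alone and each library left out. No 2 libraries of a group agreed within counting noise (lowest chi-square over its degrees of freedom, 70.3). The genes and lists were chosen with earlier results of these data known. All 40 genes could be named. Values in every library were given for the gene with the highest mean log2 CPM of each of 12 roles and for Mki67, Top2a, Cdk1, Ccnb1, Foxm1, Mcm2, Pcna, Rrm2, E2f1 and Ccne1, and test values for the 2 S-phase and 3 mitotic genes with the smallest p in each comparison. Promoter sequences were credited to RefSeq, and 23 of 33 windows matched a transcript of their gene in the given direction and 0 in the other. Of the printed promoters, those of Cdk1, Ube2c, Cdc20 and Rrm1 were among the 23, and those of Mcm5 and Mcm6 were not.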

Additional observations from a re-analysis of the deposited data

Results flagged for a closer look

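Of 80 groups of 4 or 5 libraries examined, 9 held a library whose gap to its nearest neighbour was large for the range of its group, and chance flags about 1 in 20 groups. Oxymetholone replicate 5 was the far library of its group in 4 S-phase genes: Mcm2 (9.62 CPM), Mcm3 (11.3 CPM), Mcm6 (5.96 CPM) and E2f1 (6.39 CPM). Oxymetholone replicate 2 was the far library in Cenpf (1.04 CPM). Wild-type replicate 2 was the far library in Mcm4 (4.13 CPM) and E2f1 (3.95 CPM), wild-type replicate 1 in Ccne2 (2.26 CPM) and wild-type replicate 3 in Kif11 (2.04 CPM). Groups of 3 libraries, among them the combination group with its high replicate 3, were not examined in this way.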

How the results depend on the processing

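No paired analysis was possible because the labels carry no replicate numbers. Of 570 values of the 40 named results under the alternatives, 565 kept their direction and their side of the threshold. DESeq2 called 1 gene in combination against wild type, Ccne1 (2.24). The interaction median of the mitotic genes was -3.14 with limma-voom. Leaving out 1 library at a time, the mitotic median for combination against untreated mutants ran from -0.24 to 2.34, for combination against wild type from -0.76 to 1.82 and for the interaction from -2.82 to -0.14, the low end of each without combination replicate 3. Over the same settings Ccnb2 in the combination ran from -0.28 to 3.50 against untreated mutants and Prc1 from -0.25 to 2.20 against wild type, again lowest without combination replicate 3. With combination replicate 3 and metformin replicate 4 both left out, chosen after seeing the data, the mitotic median for the combination was -0.25 against untreated mutants and -0.74 against wild type, with Ccnb2 at -0.29 and Prc1 at -0.24. The cause was not tested. Groups of 3 to 5 libraries and the low counts of the mitotic genes limit the precision.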
